A study of Mus musculus with 27 samples.

Results

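Interferon-stimulated genes were followed through a reproductive cycle in BALB/c mouse livers. BALB/c is an inbred strain. The set was a list of 38 genes matched by symbol to the 51826 gene identifiers of the count tables. All 38 were found under 1 identifier each, and all 38 passed the filter on low counts that left 16428 genes for testing. They were divided into 32 targets of type I interferon, 5 GTPases best known as targets of interferon gamma (Gbp2, Gbp3, Gbp7, Igtp and Irgm1), and Irf1, which both kinds of interferon induce.

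Bulk RNA was sequenced from 27 whole livers of wild-type animals that had been frozen and ground to powder. Mice that had litters were mated when 10 to 12 weeks old, their litters were made even in size, and pups were removed after 10 to 14 days of lactation. The groups were 4 nulliparous mice (NUL), 3 mice at day 10 of lactation (LAC), and, for the involution that follows weaning, 3 mice at day 2 (ID2), 4 at day 4 (ID4), 6 at day 6 (ID6) and 3 at day 8 (ID8), and 4 mice 4 weeks after weaning (REG). Animals were matched for age across the groups, per the design text of the series. Each library is named by its stage and the number in its title, as in ID2_39, and each number was read as 1 animal. If numbers did not mark separate animals, p-values would measure only the spread between libraries.

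Type I interferons signal through the receptor Ifnar1 and Ifnar2 and the kinases Jak1 and Tyk2 to a complex that holds Stat2 and Irf9 and binds the interferon-stimulated response element (ISRE) in target promoters. Interferon gamma signals through the receptor Ifngr1 and Ifngr2, and its target promoters can hold the gamma activated sequence (GAS). Target genes encode sensors of foreign RNA and DNA, enzymes and binding proteins that block viral replication, and GTPases that act on compartments holding microbes. In liver both hepatocytes and the resident macrophages, called Kupffer cells, respond to interferons.

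The sequences below show the ISRE core in promoters of members whose levels are described further on, and a GAS in that of Irf1. They were read 5′ to 3′ on the strand of the gene from RefSeq promoters of GRCm38.p6. Each promoter ran from 250 bases before to 50 bases after the annotated start, and capitals mark the matched letters with 15 bases to either side in lower case. The ISRE core was searched on both strands as GAAA, any 2 bases and GAAA again, so that a match on the other strand reads TTTC, any 2 bases and TTTC, and matches could overlap each other or a GAS. The windows were chr19:34583358-34583431 (plus strand) for Ifit3, chr19:34607754-34607827 (plus) for Ifit3b, chr19:34640770-34640828 (plus) for Ifit1, chr12:26456548-26456587 (minus) for Rsad2, chr3:142620589-142620628 (plus) for Gbp2, chr3:142559984-142560029 (plus) for Gbp3, chr8:71537572-71537617 (minus) for Bst2 and chr11:53769909-53769947 (plus) for Irf1.
Ifit3: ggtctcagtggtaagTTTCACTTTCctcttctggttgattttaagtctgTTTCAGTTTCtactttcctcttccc
Ifit3b: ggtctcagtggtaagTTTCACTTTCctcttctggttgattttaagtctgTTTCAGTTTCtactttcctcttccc
Ifit1: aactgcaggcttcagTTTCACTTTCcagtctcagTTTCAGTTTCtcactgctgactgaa
Rsad2: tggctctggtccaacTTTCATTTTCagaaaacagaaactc
Gbp2: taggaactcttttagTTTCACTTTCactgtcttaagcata
Gbp3: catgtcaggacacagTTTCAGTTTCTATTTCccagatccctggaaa
Bst2: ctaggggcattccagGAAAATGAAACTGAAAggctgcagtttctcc
Irf1: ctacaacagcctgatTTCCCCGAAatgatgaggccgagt

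The windows of the neighbouring genes Ifit3 and Ifit3b were identical over 74 bases, with 2 matches each. Promoters of 28 of the 38 members were in the table, and 16 of these (57.1%) held the ISRE core. Among all 27025 genes with a promoter in the table, 3.993% held it. The core was present in 11 of 22 type I targets and in 5 of 5 GTPases, and in none of the Irf1 promoters. A GAS, searched as TTCNNNGAA on both strands, was present in 7 of the 28 members (25%) and in 9.554% of all genes. These members were Irf1, Oas1a, Ifit2, Bst2, Ifi35, Gbp7 and Igtp. Dhx58, Zbp1, Oas2, Usp18, Mx1, Mx2, Rtp4, Ifi27, Parp9 and Parp14 were not matched in the table. A match is a description of letters in the window and says nothing of binding.

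Levels per length, in TPM (transcript abundance scaled to gene length and library size), spanned a wide range between members. Bst2, a membrane protein that tethers budding viruses to the cell, was the most abundant member, with a median of 449 TPM over the 27 libraries. Ifi27, an interferon-alpha-inducible membrane protein, followed with 159 TPM. Irgm1 (55.3 TPM), Lgals3bp (53.0 TPM), Igtp (40.3 TPM) and Isg15 (36.9 TPM) came next. The lowest members were Oas2 (0.91 TPM), Mx1 (0.78 TPM) and Oas3 (0.66 TPM). Mx2 is annotated as a polymorphic pseudogene. Counts were not whole, with a fraction over 0.005, in some or all libraries for Oas1a, Ifit1, Ifit3, Ifit3b, Rtp4, Parp9, Gbp7 and Igtp, so their values depend on how shared reads were divided, and Ifit3 and Ifit3b above all may share reads.

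**Figure D1:**
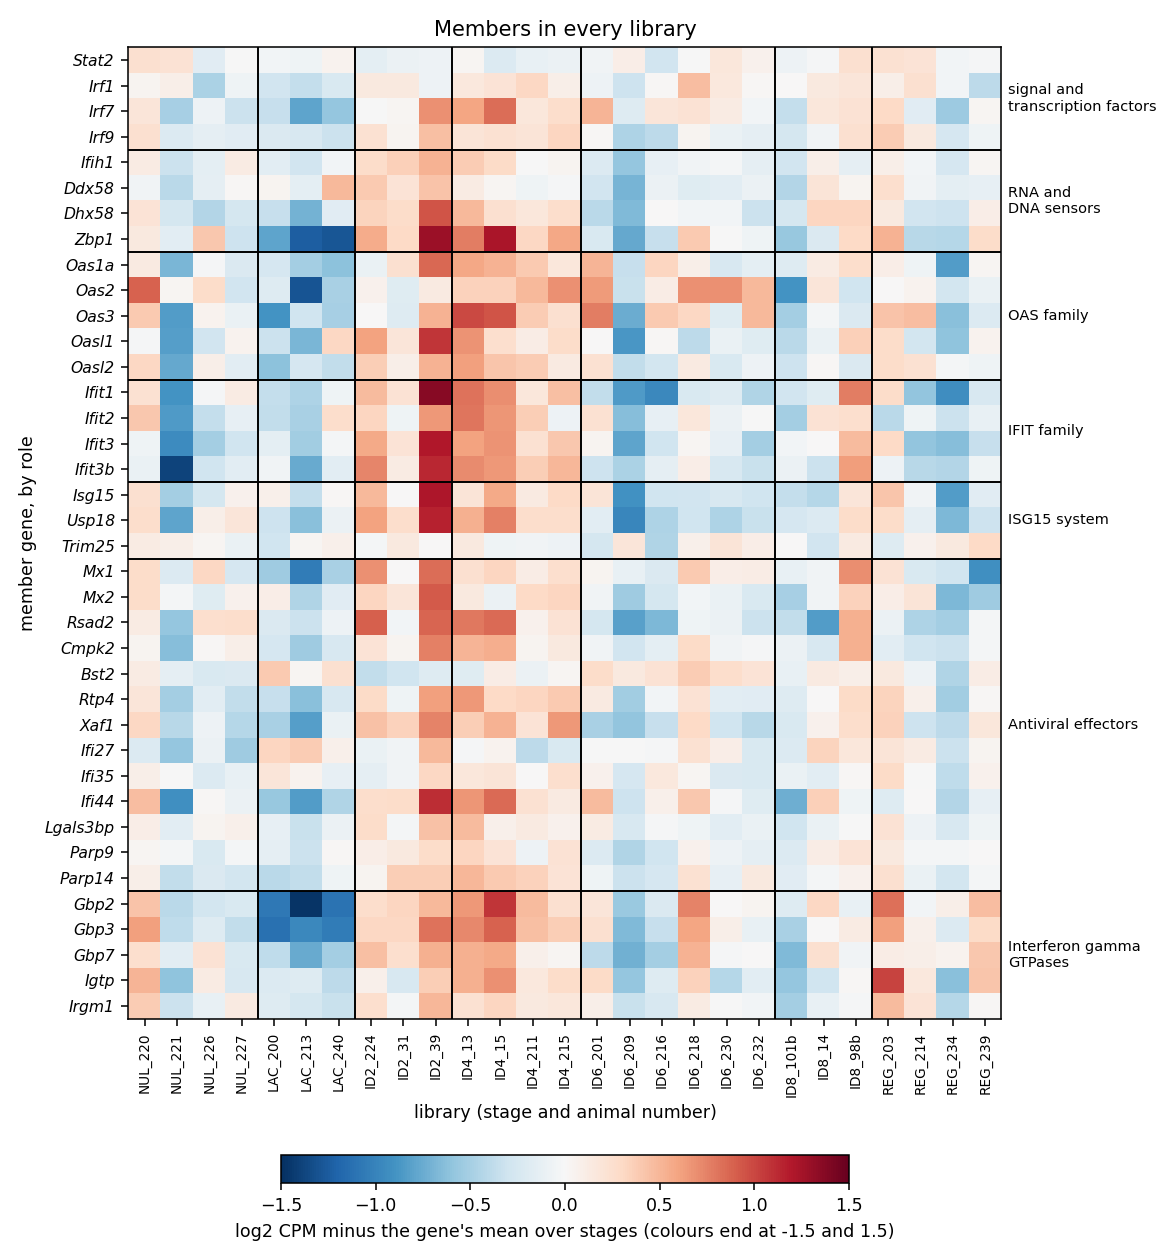
Each cell shows 1 member (vertical axis, by role) in 1 library (horizontal axis, by stage) as its log2 CPM minus the mean of that gene's 7 stage means, blue below and red above that mean, with colours ending at -1.5 and 1.5. Zbp1, Gbp2 and Gbp3 are blue in the 3 LAC libraries, and most type I targets are red in ID2_39, ID4_13 and ID4_15.

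Differences between stages were tested on counts, and levels of a gene are given in CPM, counts scaled to the TMM-adjusted library size. A member was called at an adjusted p under 0.05 over all 16428 genes in edgeR's quasi-likelihood test with Benjamini-Hochberg adjustment, named below as edgeR adjusted p. In the test of any difference among the 7 stages, 27 of 38 members were called, where 27% of all genes were called. By role, these were 2 of 4 signal and transcription factors, 4 of 4 RNA and DNA sensors, 4 of 5 members of the OAS family, 3 of 4 of the IFIT family, 1 of 3 of the ISG15 system, 10 of 13 antiviral effectors and 3 of 5 GTPases. The smallest edgeR adjusted p values belonged to Gbp2 (0.000971), Zbp1 (0.00155), Ifit3b (0.00214), Parp14 (0.00264), Gbp3 (0.00339), Dhx58 (0.00369), Usp18 (0.00385), Ifit3 (0.0039), Bst2 (0.00418) and Xaf1 (0.00438). Members not called were Stat2, Irf1, Oas3, Ifit2, Isg15, Trim25, Mx2, Ifi27, Ifi35, Igtp and Irgm1. The count was 16 without LAC_213 and 17 without ID2_39. It was 13 with a term for title numbers under 200, which 7 libraries carry, and 13 with a clock score, which sets genes of one phase of the daily clock against genes of the other, as a covariate.

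Highest levels lay mostly in the days after weaning. Of the 38 members, 20 had their highest stage mean at ID2 and 14 at ID4, where 16.4% and 14% of all genes tested had theirs. ID2_39 weighed on the ID2 means. Zbp1 had 25.7 CPM there, with a mean of 18.1 at ID2 and 17.9 at ID4, and Irf9 had 55.1 CPM, with means of 47.8 and 47.3. All ID2 values of Ifih1 were above its ID4 mean of 39.9 CPM. How many peaks would move without ID2_39 was not counted, and peaks at ID2 and at ID4 are not told apart. The lowest stage mean was at LAC for 21 members and at ID6 for 8, and for 27.5% and 12.3% of all genes. The ratio of the highest to the lowest stage mean was 3.64 for Zbp1, 3.60 for Gbp2 and 3.16 for Gbp3, and it was below these for all others. Trim25 (1.11) and Stat2 (1.15) had the smallest ratios. The exceptions to the peak at ID2 or ID4 were Bst2, highest at ID6, Ifi27, highest at LAC, and Trim25 and Stat2, highest at REG.

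**Figure D2:**
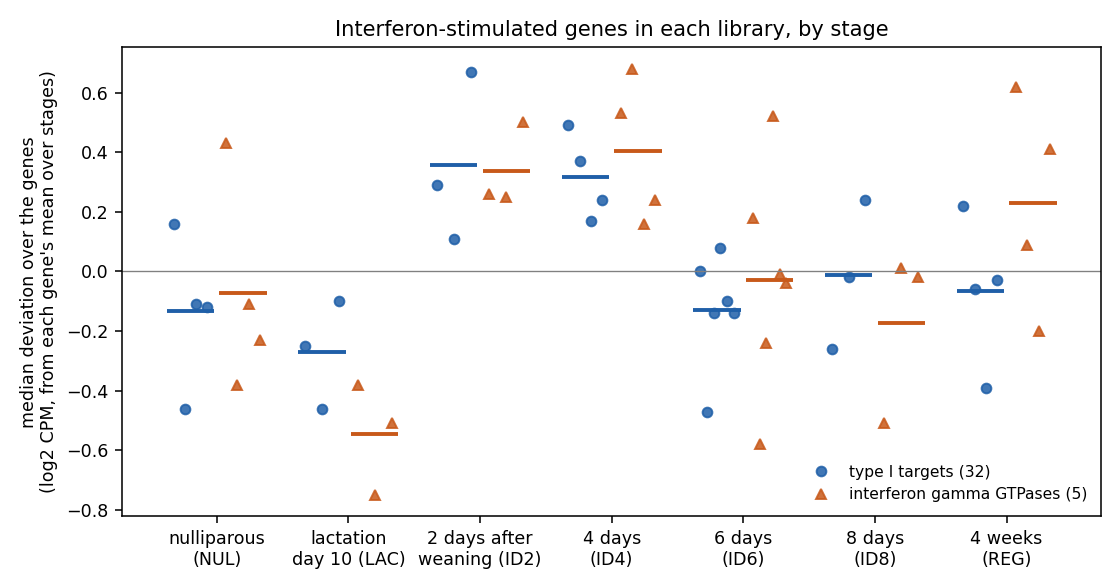
Each point is 1 library, showing the median over 32 type I targets (circles) or 5 GTPases (triangles) of log2 CPM minus each gene's mean over the stages, by stage on the horizontal axis, and bars are stage means. Type I medians range from 0.11 to 0.67 at ID2 and from 0.17 to 0.49 at ID4, and from -0.46 to -0.10 at LAC.

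The class medians of single libraries show how far animals of 1 stage differed. For the type I targets, the median deviation was 0.29, 0.11 and 0.67 in ID2_224, ID2_31 and ID2_39. It was 0.49, 0.37, 0.17 and 0.24 in ID4_13, ID4_15, ID4_211 and ID4_215. The NUL libraries lay at 0.16 (NUL_220), -0.46 (NUL_221), -0.11 and -0.12, so NUL_220 overlapped the range of ID2. The 6 ID6 libraries ran from -0.47 (ID6_209) to 0.08 (ID6_218). For the GTPases, the 3 LAC libraries lay at -0.38, -0.75 and -0.51, and NUL_221 reached down to -0.38.

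During lactation 2 of 5 GTPases and 2 of 32 type I targets were below the nulliparous level. Against NUL, 4 members were lower in LAC (background 6% of all genes, and 11.2% either way), Zbp1, Gbp2, Gbp3 and Oas2, and 1 was higher (background 5.19%), Ifi27. The median log2 fold change was -0.58 for the 5 GTPases, -0.20 for the 32 type I targets and -0.21 for all 38 members, against -0.009 for all genes tested. The IFIT family had a median of 0.06 and none of its 4 members was called. The share of members called higher or lower was near that of all genes in both directions.

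Gbp2 (ENSMUSG00000028270, chromosome 3, 142620602 to 142638008, plus strand), a guanylate-binding protein, had 12.5, 7.06, 7.72 and 7.95 CPM in the NUL libraries and 4.43, 3.37 and 4.33 CPM in the LAC libraries. All LAC values were below all NUL values, and NUL_220 stood above the other NUL libraries. The fitted log2 fold change was -1.13 (SE 0.27, edgeR adjusted p = 0.00805). Its neighbour Gbp3 (ENSMUSG00000028268, chromosome 3, 142560026 to 142573209, plus strand) had 29.4, 14.6, 16.8 and 14.8 CPM in NUL and 8.78, 9.80 and 9.23 CPM in LAC, with NUL_220 again the highest and no overlap. Its log2 fold change was -1.03 (SE 0.28, edgeR adjusted p = 0.0180), and -0.73 without NUL_220, where it was not called (edgeR adjusted p = 0.0709). Zbp1 (ENSMUSG00000027514, chromosome 2, 173206612 to 173218923, minus strand), a sensor of nucleic acid in the Z form, had 11.7, 9.45, 14.0 and 8.53 CPM in NUL and 6.09, 4.47 and 4.33 CPM in LAC. The groups did not overlap, and the log2 fold change was -1.14 (SE 0.31, edgeR adjusted p = 0.0193). Oas2, which makes the messenger that activates RNase L, had 4.43, 2.45, 2.91 and 1.98 CPM in NUL and 2.10, 0.98 and 1.71 CPM in LAC, so that LAC_200 lay within the NUL range. Its log2 fold change was -0.88 (SE 0.28, edgeR adjusted p = 0.0360).

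Ifi27 (ENSMUSG00000064215, chromosome 12, 103434211 to 103440239, plus strand) went the other way. It had 65.9, 50.8, 71.6 and 52.5 CPM in NUL and 95.2, 99.1 and 80.1 CPM in LAC, with no overlap. Its log2 fold change was 0.60 (SE 0.16, edgeR adjusted p = 0.0119). Ifi27 was not called on log2(TPM + 1) or log2(TPM + 0.1). LAC_213 weighed on all 5 calls, since without it none of them was called and only Bst2 was (1 member, higher). The count was 2 without LAC_240 and 3 without NUL_226, and leaving out 1 library ended the call in 4 of 7 fits for Gbp3 and Oas2 and in 3 of 7 for Zbp1.

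Markers of several cell types moved with the lactation difference. Of the 10 Kupffer cell and macrophage markers, 7 were lower in LAC and none higher, and their summed level was 300.2 to 421.9 CPM in LAC and 450.4 to 573.2 CPM in NUL. Also lower were 3 of 9 T cell markers (summed 2.22 to 3.04 CPM in LAC and 4.74 to 6.55 CPM in NUL), 2 of 6 NK cell markers tested, 2 of 4 B cell markers, 3 of 5 markers of conventional dendritic cells, 3 of 6 tested for plasmacytoid dendritic cells and 2 of 6 for monocytes. Runx2 of the plasmacytoid dendritic cell list was at 0 in all 3 LAC libraries and in no NUL library, with at most 11 counts in NUL. Cox6a2 of that list was also at 0 in LAC but reached only 2 counts in NUL and was not tested. Outside the immune cells, 2 of 5 stellate cell markers were lower (summed to 209.2 CPM in LAC_200, the middle LAC library, with all 3 libraries below the 259.4 to 308.6 CPM of NUL). None of 6 markers of sinusoidal endothelium was called by edgeR, while their summed level was 186.9 to 214.8 CPM in LAC and 226.5 to 266.2 CPM in NUL. The summed hepatocyte markers were higher, 186000 to 232000 CPM in LAC against 98500 to 127000 CPM in NUL. Alb made up most of that sum, with at most 11819238 counts in LAC and 6977251 in NUL. The highest count of Serpina1a was also higher in LAC, while those of Ttr, Apoa1, Cyp2e1 and Cps1 were lower. Cyp2e1 reached 94024 counts in LAC and 332542 in NUL, not scaled to library size. The markers of this list thus went both ways. The part of these cell types in the members' values was not tested, and in bulk tissue fewer cells of a type and less RNA per cell cannot be told apart.

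At day 2 after weaning 23 of 38 members stood above the lactating liver, and 14 were not called. Against LAC, 23 members were higher in ID2 (background 8.48% of all genes) and 1 was lower (background 7.64%, and 16.1% either way), Bst2. The 24 calls comprised 2 of 4 signal and transcription factors (Irf7 and Irf9), 3 of 4 sensors (Ifih1, Dhx58 and Zbp1), 3 of 5 in the OAS family (Oas1a, Oasl1 and Oasl2), 3 of 4 in the IFIT family (Ifit1, Ifit3 and Ifit3b), 1 of 3 in the ISG15 system (Usp18), 9 of 13 antiviral effectors and 3 of 5 GTPases (Gbp2, Gbp3 and Gbp7). The median log2 fold change was 0.70 over all 38 members, 0.70 over the type I targets and 0.96 over the GTPases, against 0.015 over all genes. This comparison shares the LAC libraries with that of LAC against NUL, so the values of the LAC libraries enter both.

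**Figure D3:**
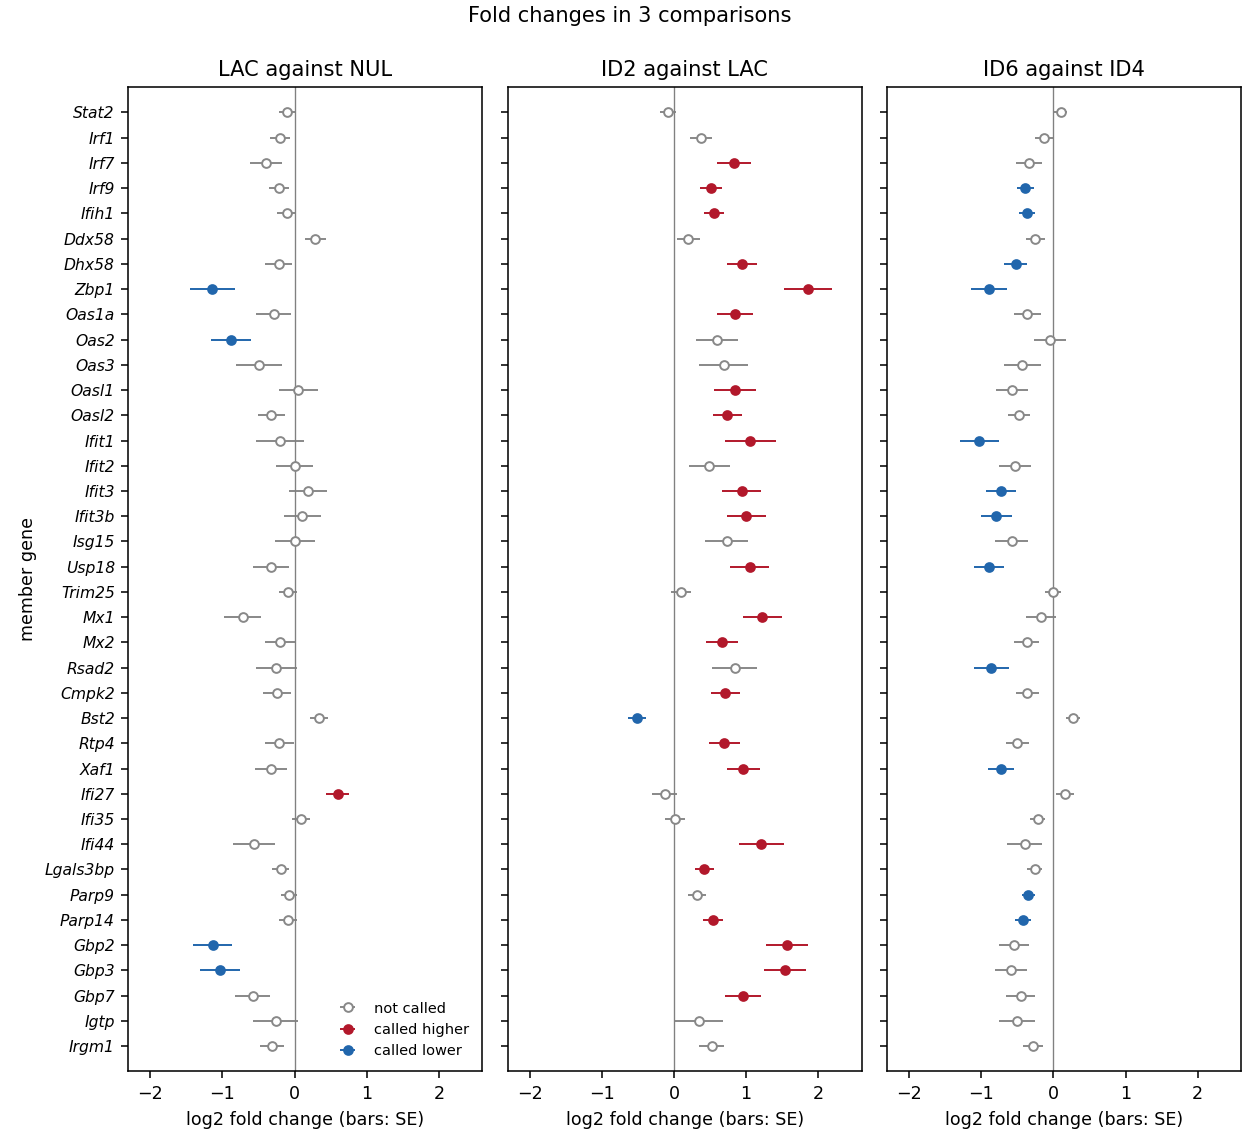
Points are fitted log2 fold changes of each member with bars of 1 SE, for LAC against NUL (left), ID2 against LAC (middle) and ID6 against ID4 (right), filled red or blue where called higher or lower. In the middle panel 23 members are filled red and Bst2 alone is blue, and in the right panel 12 are blue and none is red.

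Among the sensors, Zbp1 had 15.5, 13 and 25.7 CPM in ID2_224, ID2_31 and ID2_39, all above the highest LAC value of 6.09 CPM. It was 3.64-fold higher, the largest rise among the members (log2 fold change 1.86, SE 0.33, edgeR adjusted p = 0.000723). Dhx58, an RNA helicase that tunes the sensors Ddx58 and Ifih1, had 9.02, 7 and 10.1 CPM in LAC and 14.4, 13.8 and 22.0 CPM in ID2. The groups did not overlap, with a fitted log2 change of 0.94 (SE 0.21, edgeR adjusted p = 0.00298). Ifih1, a sensor of long double-stranded RNA, had 31.5, 28.6 and 34.0 CPM in LAC and 42.6, 44.8 and 50.3 CPM in ID2, again without overlap (log2 fold change 0.55, SE 0.14, edgeR adjusted p = 0.00702). Ddx58, with a fitted log2 fold change of 0.20, was the sensor that was not called.

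The GTPases Gbp2 and Gbp3 changed nearly as much as Zbp1. Gbp2 had 11.2, 11.6 and 13.1 CPM in ID2, against 4.43 CPM in the highest LAC library (log2 fold change 1.57, SE 0.29, edgeR adjusted p = 0.000768). Gbp3 had 23.7, 23.6 and 33.7 CPM in ID2, against at most 9.80 CPM in LAC (log2 fold change 1.54, SE 0.29, edgeR adjusted p = 0.00133). Neither gene's groups overlapped. Irgm1 (log2 fold change 0.52, edgeR adjusted p = 0.0544) and Igtp (0.35, edgeR adjusted p = 0.519), which belong to a related family of GTPases that guard vacuoles, were not called.

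Effectors and regulators rose by smaller amounts. Mx1, a dynamin-like GTPase, had 0.983, 0.688 and 1.02 CPM in LAC and 2.30, 1.43 and 2.55 CPM in ID2, which did not overlap (log2 fold change 1.22, SE 0.27, edgeR adjusted p = 0.00348). Xaf1, which promotes cell death, had 3.48, 2.75 and 4.55 CPM in LAC and 6.64, 6.20 and 8.21 CPM in ID2, also without overlap (log2 fold change 0.96, SE 0.23, edgeR adjusted p = 0.00597). Usp18 (ENSMUSG00000030107, chromosome 6, 121245906 to 121270917, plus strand) removes Isg15 from proteins and restrains the type I receptor. It had 9.61, 7.72 and 11.3 CPM in LAC and 18.1, 14.4 and 26.6 CPM in ID2, with ID2_39 far above the other libraries (log2 fold change 1.05, SE 0.27, edgeR adjusted p = 0.0108). Parp14, which attaches ADP-ribose to proteins, had 34.8, 35.5 and 44.0 CPM in LAC and 47.4, 59.3 and 59.4 CPM in ID2, with no overlap (log2 fold change 0.54, SE 0.14, edgeR adjusted p = 0.0101). The other 14 called members had log2 fold changes from 0.42 (Lgals3bp) to 1.21 (Ifi44).

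Bst2 (ENSMUSG00000046718, chromosome 8, 71534255 to 71537456, minus strand) was the member that fell. It had 255.3, 198.1 and 229.6 CPM in LAC and 151.3, 158.5 and 169.9 CPM in ID2, so every ID2 library was below every LAC library. The log2 fold change was -0.51 (SE 0.12, edgeR adjusted p = 0.00608).

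**Figure D4:**
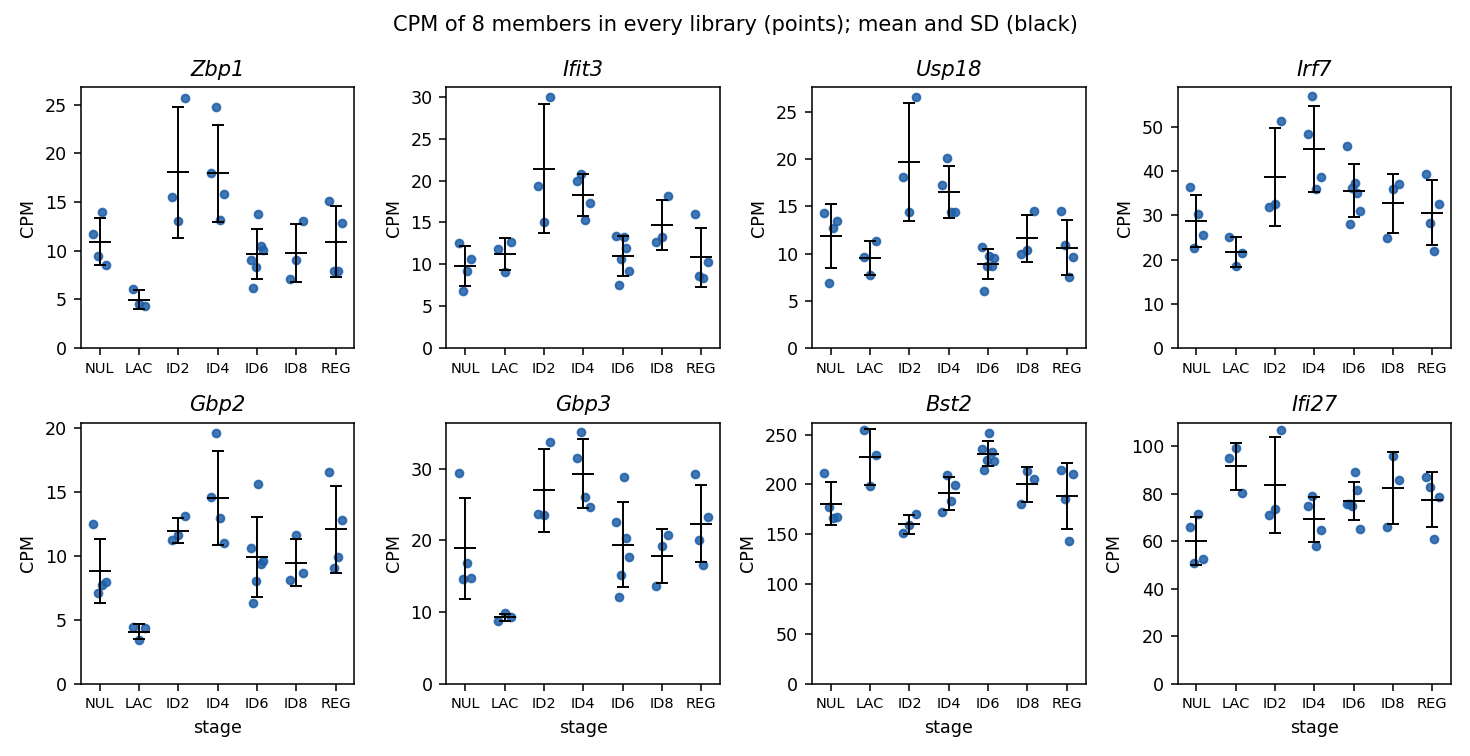
CPM (vertical axes, from 0) of 8 members in every library (points) by stage, with the stage mean and SD in black. Zbp1, Gbp2 and Gbp3 are lowest at LAC, Ifit3 and Usp18 are highest in ID2_39, and Bst2 is lowest at ID2, where its 3 libraries lie between 151.3 and 169.9 CPM.

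Calls for Zbp1, Gbp2, Gbp3, Dhx58, Mx1, Bst2 and Ifih1 in this comparison held without any 1 library, while those for Xaf1, Parp14 and Usp18 were lost in 1, 2 and 2 of the 6 fits that each left out a library. The count of called members was 8 without LAC_213 and 10 without ID2_39. It was 7 with the title number term (2 of 3 ID2 titles and no LAC title are under 200), and 4 with the clock score (Zbp1, Gbp2 and Gbp3 higher, Bst2 lower). The clock score was 1.17, 1.51 and 4.92 in ID2_224, ID2_31 and ID2_39 and -0.87, -1.18 and 0.71 in the LAC libraries. With it as a covariate the log2 fold change of Zbp1 was 1.22 (edgeR adjusted p = 0.0322) and that of Usp18 0.33 (edgeR adjusted p = 0.398). Also not called with it were Dhx58 (0.58), Mx1 (0.87), Xaf1 (0.63), Ifih1 (0.26) and Parp14 (0.3). Of the genes described above, Ifih1 (0.38), Parp14 (0.38) and Usp18 (0.85) were not called with the title number term. ID2_224, the single ID2 library numbered 200 or over, had a median difference of 0.57 over the members from the 3 LAC libraries on the log2 CPM scale, against 0.68 for all ID2 libraries.

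Kupffer cell and macrophage markers rose too, 7 of 10 in ID2 against LAC, with a summed level of 415.7 to 517 CPM in ID2, which overlapped the 300.2 to 421.9 CPM of LAC. Of the monocyte markers 4 of 6 rose, of those tested for plasmacytoid dendritic cells 4 of 6 (summed 11.8 to 28.7 CPM in ID2 and 8.34 to 11.6 CPM in LAC), of the NK cell markers tested 1 of 6 (summed 1.25 to 1.82 CPM in ID2 and 0.329 to 0.98 CPM in LAC) and of the T cell markers 1 of 9. The plasmacytoid list holds Klk1, a kallikrein also made in pancreas, which reached 1192 counts in ID2_31 and at most 56 in any library of another stage. Tcf4 of that list reached 792 counts in ID2 and 656 in LAC, far above its other markers apart from Klk1. Fn1 of the monocyte list reached 125248 counts in ID2, where the next highest, Plac8, reached 507. These genes may not read the cell type of their list alone, which was not tested. Of the sinusoidal endothelium markers 3 of 6 rose, with a summed level of 250.1 to 259.4 CPM in ID2. Summed levels of the stellate cell list (225.8 to 254 CPM in ID2) and the list for conventional dendritic cells (2.45 to 2.95 CPM in ID2 and 1.26 to 1.64 CPM in LAC) were also above LAC without overlap, with no marker called by edgeR. The summed hepatocyte markers were lower, at 141000 to 154000 CPM in ID2. Alb again made up most of the sum, with at most 8263339 counts in ID2. The highest count of Serpina1a was also lower in ID2 than in LAC, while those of Ttr, Apoa1, Cyp2e1 and Cps1 were higher. Cyp2e1 reached 244559 counts in ID2 and 94024 in LAC, not scaled to library size. Pancreas markers, a sign of neighbouring tissue in the sample, summed to 1410 CPM in ID2_31 and to no more than 18.9 CPM in LAC. Without ID2_31, 27 members were called. The part of these cell types was not tested.

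Measured from the nulliparous level instead, Ifit3 and Ifit3b were the members called at both ID2 and ID4, and Ifit1 and Ifit2, the other members of their family, were called at neither. At ID2, 3 members were higher than in NUL (background 2.32%) and none was lower (background 0.919%, and 3.24% either way). At ID4, 3 were higher (background 2.64%) and none lower (background 1.61%, and 4.25% either way). The median log2 fold change over all 38 members was 0.46 at ID2 and 0.44 at ID4, against -0.017 and -0.016 over all genes. Unadjusted p values under 0.05 were found for 21 members at each of the stages, and for 16.9% of all genes at ID2 and 18.6% at ID4. Both comparisons share the 4 NUL libraries.

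Ifit3 (ENSMUSG00000074896, chromosome 19, 34583531 to 34588731, plus strand) and Ifit3b (ENSMUSG00000062488, chromosome 19, 34607970 to 34613401, plus strand) are close copies of a protein that binds foreign RNA together with Ifit1, and carry the identical promoter windows shown above. Ifit3 had 12.5, 6.81, 9.16 and 10.6 CPM in NUL, 19.3, 15 and 30.0 CPM in ID2, and 19.9, 20.8, 15.3 and 17.3 CPM in ID4. Every ID2 and ID4 library lay above every NUL library. The log2 fold change of Ifit3 was 1.13 at ID2 (SE 0.25, edgeR adjusted p = 0.0137) and 0.90 at ID4 (SE 0.24, edgeR adjusted p = 0.0301). Ifit3b had 5.22, 2.13, 4.53 and 4.97 CPM in NUL, 9.22, 6.07 and 12.2 CPM in ID2, and 9.12, 8.77, 7.18 and 7.88 CPM in ID4, again with no overlap. Its log2 fold change was 1.11 at ID2 (SE 0.25, edgeR adjusted p = 0.0123) and 0.97 at ID4 (SE 0.24, edgeR adjusted p = 0.0181). Counts of both were not whole in any of the 27 libraries, and whether the genes of the pair shared reads with each other was not tested.

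Dhx58 was the third member called at ID2 and Parp14 the third at ID4. Dhx58 had 13.1, 9.50, 8.4 and 9.48 CPM in NUL, all below the ID2 values given above (log2 fold change 0.72, SE 0.19, edgeR adjusted p = 0.0323). Parp14 (ENSMUSG00000034422, chromosome 16, 35832874 to 35871544, minus strand) had 48.9, 35.7, 39.6 and 37.9 CPM in NUL and 64.8, 60.4, 58.4 and 53.0 CPM in ID4, with no overlap. Its log2 fold change was 0.55 (SE 0.12, edgeR adjusted p = 0.00853), and the call held without any 1 library. It was not called with the title number term, nor on log2(TPM + 1) or log2(TPM + 0.1).

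These counts were small and moved with single libraries. At ID2 Ifit3b, Ifit3 and Dhx58 lost their calls in 1, 2 and 4 of 7 fits that each left out a library, and at ID4 Ifit3b and Ifit3 in 2 and 6 of 8. At ID2 the count was 0 without ID2_39, 1 without NUL_221 and 6 without NUL_220. At ID4 it was 1 without ID4_13, 1 without NUL_221 and 10 without NUL_220. With the title number term none was called at either stage, with log2 fold changes at ID2 of 0.94 for Ifit3, 1.02 for Ifit3b and 0.57 for Dhx58, and at ID4 of 0.76, 0.89 and, for Parp14, 0.43. With the clock score 0 were called at ID2, with values of 0.35, 0.64 and 0.30, and 1 (Parp14, 0.43) at ID4, with 0.62 for Ifit3 and 0.80 for Ifit3b. DESeq2 called 9 at ID2 and 6 at ID4. Beside the ID2 values, none of the Kupffer cell and macrophage markers was called by edgeR against NUL, 1 of 6 hepatocyte markers was higher (summed 141000 to 154000 CPM in ID2 and 98500 to 127000 CPM in NUL), 1 of 9 T cell markers was lower, and the summed stellate cell markers were lower without overlap (225.8 to 254 CPM and 259.4 to 308.6 CPM). Alb made up most of the hepatocyte sum. Beside the ID4 values, 7 of 10 Kupffer cell and macrophage markers were higher than in NUL, with a summed level of 745 to 813 CPM, and their part was not tested.

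No member was called between ID4 and ID2 (0 of 38 by edgeR, 2 at an unadjusted p under 0.05 where 13.9% of all genes were, 0 by DESeq2, background 1.49%). The smallest p belonged to Bst2, with 171.9, 210.3, 182.7 and 199.1 CPM in ID4 and a fitted log2 change of 0.26 (SE 0.12, edgeR adjusted p = 0.316). Ddx58 followed, with 40.0, 37.4, 35.0 and 36.3 CPM in ID4 and 48.4, 42.2 and 49.6 CPM in ID2 (log2 fold change -0.33, SE 0.15, edgeR adjusted p = 0.318). The groups did not overlap for either gene. With the title number term the values were 0.27 for Bst2 and -0.32 for Ddx58, and with the clock score 0.37 and -0.1. The median log2 fold change over the members was -0.04.

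Between days 4 and 6 after weaning a group of type I targets fell. In ID6 against ID4, 12 members were lower (background 4.64% of all genes) and none was higher (background 3.89%, and 8.53% either way). They were Irf9, the sensors Ifih1, Dhx58 and Zbp1, Ifit1, Ifit3, Ifit3b, Usp18, and the effectors Rsad2, Xaf1, Parp9 and Parp14. None of the 5 OAS family members and none of the 5 GTPases was called. The median log2 fold change was -0.40 for the type I targets and -0.51 for the GTPases, against 0.014 for all genes, so the classes were not set apart by their medians, and the difference between them was not tested. Without ID6_218, where Gbp2, Gbp3 and Gbp7 had the highest values of ID6, 17 members were called, these GTPases among them.

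Usp18 had 17.3, 20.1, 14.4 and 14.4 CPM in ID4 and from 6.06 through a median of 9.09 to 10.7 CPM in ID6. All ID4 libraries, including the pair numbered 200 or over (ID4_211 and ID4_215), were above all ID6 libraries. Its log2 fold change was -0.89 (SE 0.21, edgeR adjusted p = 0.01), the smallest p of the members, and Usp18 stayed called without any 1 library. Ifit1 had 23.2, 21.3, 14.8 and 18 CPM in ID4 and from 6.71 through 9.91 to 11.5 CPM in ID6, without overlap (log2 fold change -1.03, SE 0.27, edgeR adjusted p = 0.0213). Rsad2, an enzyme that makes a chain-terminating nucleotide, had 15.9, 16.5, 9.62 and 10.6 CPM in ID4 and from 5.22 through 7.48 to 8.80 CPM in ID6, without overlap (log2 fold change -0.86, SE 0.24, edgeR adjusted p = 0.0261). ID4_13 and ID4_15 stood well above ID4_211 and ID4_215.

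Ifit3 ran from 7.56 through 11.3 to 13.4 CPM in ID6, below all ID4 libraries (log2 fold change -0.73, SE 0.21, edgeR adjusted p = 0.0319). Ifit3b ran from 4.01 through 4.60 to 5.94 CPM, also below (log2 fold change -0.79, SE 0.21, edgeR adjusted p = 0.0204). Ifih1 had 45.7, 42.9, 35.0 and 35.9 CPM in ID4 and from 23.5 through 32.1 to 34.5 CPM in ID6, so the groups were barely apart (log2 fold change -0.36, SE 0.11, edgeR adjusted p = 0.0316). In the other 4 of the 10 members with the smallest p, ID6_218 reached into the range of ID4 and no other ID6 library did.

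Zbp1 had 18, 24.8, 13.1 and 15.8 CPM in ID4 and from 6.20 through 9.55 to 13.8 CPM in ID6 (log2 fold change -0.89, SE 0.25, edgeR adjusted p = 0.0268). Xaf1 had 6.32, 7.05, 5.65 and 7.70 CPM in ID4 and from 3.25 through 3.77 to 6.02 CPM in ID6 (log2 fold change -0.72, SE 0.18, edgeR adjusted p = 0.0128). Parp14 ran from 36.9 through 43.1 to 53.6 CPM in ID6 (log2 fold change -0.42, SE 0.11, edgeR adjusted p = 0.0187). Parp9, partner of a ubiquitin ligase in the interferon response, had 79.5, 73.1, 60.4 and 73.7 CPM in ID4 and from 46.3 through 56.5 to 66.5 CPM in ID6 (log2 fold change -0.35, SE 0.09, edgeR adjusted p = 0.0190).

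The calls at ID6 leaned on few libraries and on the setting. The count was 2 without ID4_13 (Usp18 and Xaf1), 2 without ID6_209 (the same genes) and 4 without ID4_15. Of the 9 genes described above other than Usp18, each lost its call in 1 (Xaf1) to 6 (Ifit3) of the 10 fits that left out a library, with the largest edgeR adjusted p at 0.148 (Ifih1 without ID4_13). It was 0 with the title number term, which splits ID4 into 2 and 2 while all ID6 titles are 200 or over. Under that term the log2 fold changes of the 10 genes ran from -0.22 to -0.80. The values were -0.73 for Usp18, -0.70 for Xaf1, -0.71 for Ifit3b, -0.80 for Ifit1, -0.73 for Rsad2, -0.59 for Ifit3, -0.63 for Zbp1, -0.22 for Ifih1, -0.30 for Parp14 and -0.27 for Parp9. With the clock score they were, in the same order, -0.49, -0.52, -0.55, -0.59, -0.64, -0.36, -0.54, -0.19, -0.27 and -0.27, and under the clock score no member was lower and 1, Bst2, was higher. Clock scores were from -0.18 to 1.57 in ID4 and from -1.93 to -0.76 in ID6. In animals numbered 200 or over, 2 in ID4 and 6 in ID6, the median difference over the members was -0.25, against -0.41 in all, on the log2 CPM scale. Of the 10 Kupffer cell and macrophage markers none was called here, and their summed level was 745 to 813 CPM in ID4 and 599 to 931 CPM in ID6. Of the conventional dendritic cell markers 1 of 5 was higher in ID6 (summed 2.57 to 3.24 CPM in ID4 and 2.87 to 4.52 CPM in ID6), and 1 of 6 hepatocyte and 1 of 5 stellate cell markers were lower. None of 9 T cell markers was called, with a summed level of 3.98 to 5.67 CPM in ID4 and 5.59 to 8.47 CPM in ID6. The part of these cell types was not tested.

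Of the 23 members called higher at ID2 against LAC, 10 were among the 12 called lower at ID6 against ID4, and no library is part of both comparisons. That is 43.5% of the first list and 83.3% of the second, where over all genes 344 were shared, 24.7% of the 1393 higher and 45.1% of the 762 lower. The first list held 23 of 38 members but 8.48% of all genes. The shares for members and for all genes start from unlike bases and are not compared. The 10 were Irf9, Ifih1, Dhx58, Zbp1, Ifit1, Ifit3, Ifit3b, Usp18, Xaf1 and Parp14. Parp9 and Rsad2 were lower at ID6 and not called at ID2 against LAC. Both comparisons set a stage with titles under 200 (2 of 3 in ID2, 2 of 4 in ID4) against a stage without any. Every clock score of ID2 was above those of LAC, and every clock score of ID4 above those of ID6. With the title number term 6 members were higher in ID2 than in LAC and none was lower in ID6 than in ID4. With the clock score 3 were higher and again none was lower.

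At the later stages the members were not distinguished from the nulliparous liver at this depth of replication. No member was called against NUL at ID6 (background 1.08%), ID8 (0.499%) or REG (0.0852%) by edgeR, and unadjusted p values under 0.05 numbered 2, 3 and 1 (11.9%, 12.8% and 7.17% of all genes). DESeq2 called 1 member at ID6, Bst2, and none at ID8 or REG. Bst2 had 211.6, 176.6, 166.1 and 167 CPM in NUL and from 214.7 through 229 to 252.4 CPM in ID6, with all ID6 libraries above all NUL libraries (log2 fold change 0.36, SE 0.10, edgeR adjusted p = 0.0724). Without NUL_220 edgeR called it. Ifi27 was second at ID6 (log2 fold change 0.36, edgeR adjusted p = 0.238), first at ID8 with 65.9, 95.8 and 85.6 CPM (0.45, edgeR adjusted p = 0.212), and first at REG with 87.2, 83.0, 61.0 and 78.5 CPM (0.36, edgeR adjusted p = 0.556), and its groups overlapped in each case. All 3 ID8 titles are under 200 and no NUL title is. The ID8 value of Ifi27 was 0.12 with the title number term and 0.24 with the clock score.

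Ifit3 at ID8 had 12.7, 13.2 and 18.2 CPM, above all NUL libraries but not called (log2 fold change 0.59, SE 0.25, edgeR adjusted p = 0.330). The Ifit3 value was 0.31 with the title number term and 0.2 with the clock score. Gbp2 at REG had 16.6, 9.04, 9.89 and 12.8 CPM, which overlapped NUL (log2 fold change 0.46, edgeR adjusted p = 0.744). Its value without REG_203 was 0.26. Medians over all 38 members were -0.01 at ID6, 0.07 at ID8 and 0.07 at REG.

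Between ID8 and ID6, and between REG and ID8, edgeR and DESeq2 called no member (background 4.12% and 0.0487%), and unadjusted p values under 0.05 numbered 4 and 0 (20.5% and 9.02% of all genes). Oas2 was first at ID8, with 1.29, 2.73 and 1.96 CPM against 1.91 through 3.55 to 3.88 CPM in ID6 (log2 fold change -0.68, SE 0.25, edgeR adjusted p = 0.123). Ifit1 was second (log2 fold change 0.67, edgeR adjusted p = 0.207), and its value was 0.25 without ID8_98b, the ID8 library with the highest Ifit1, 22.5 CPM. Igtp (0.62, edgeR adjusted p = 0.574) and Mx1 (-0.49, edgeR adjusted p = 0.584) had the smallest p values between REG and ID8, with 121, 66.6, 38.8 and 79.8 CPM and with 1.65, 1.22, 1.16 and 0.753 CPM in REG. REG_203 was high for Igtp, whose value without it was 0.31, and the value of Mx1 was -0.18 without ID8_98b and -0.32 without REG_239.

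Of the 38 members, 10 were called in none of the 11 comparisons. The share of all genes called in none was not counted, so whether 10 is few or many is not known. These 10 members were Stat2, a subunit of the complex that binds the ISRE, Irf1, Ddx58, Oas3, Ifit2, Isg15, Trim25, Ifi35, Igtp and Irgm1. Isg15, a ubiquitin-like protein joined to others, had 16.2, 11.9 and 15.5 CPM in LAC and 21.3, 15.4 and 35.4 CPM in ID2, so that ID2_31 lay within the LAC range (log2 fold change 0.73, edgeR adjusted p = 0.108). Stat2 stayed between 52.0 and 75.2 CPM in all 27 libraries.

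Lists of genes upstream of the members were small. Those of receptors and kinases, of brakes and of ligands are described here. The list for the induction of interferon is counted only with all other pathway genes further on, so the lack of calls given here does not extend to it. Of 10 receptors and kinases, none was called by edgeR in LAC against NUL or in ID2 against LAC, and 1 and 2 had an unadjusted p under 0.05, where 11.2% and 16.1% of all genes were called and 23.6% and 29.1% had such a p. Ifngr1, a chain of the interferon gamma receptor, was lower at ID2 than in NUL (log2 fold change -0.49, edgeR adjusted p = 0.0104) and higher at ID6 than at ID4 (0.38, edgeR adjusted p = 0.0109), and Ifngr2, the other chain, was lower at ID6 (-0.36, edgeR adjusted p = 0.0307). None of 4 genes that brake the pathway was called by edgeR in any of the 11 comparisons, where 0.0487% to 16.1% of all genes were. At most 2 of the 4 had an unadjusted p under 0.05 in any 1 comparison (ID6 against ID4, where 22.9% of all genes did). Nothing is read from so few genes. Ligand transcripts were scarce. Ifng reached at most 17 counts in a library and was above 0 in 18 of 27, Ifnb1 at most 4 counts in 3 libraries, and Ifna2, Ifne, Ifnl2 and Ifnl3 were at 0 in all.

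Other genes of the pathway, from lists that hold no member, gave further values. Of 93 such genes 85 were tested. In LAC against NUL 18 were lower and none higher (background 6% and 5.19% of all genes). In ID2 against LAC 31 were higher and none lower (background 8.48% and 7.64%). In ID6 against ID4 6 were lower and 1 higher (background 4.64% and 3.89%), which is near the background. Among other GTPases and interferon gamma targets, 5 of 19 tested were lower in LAC, 9 of 19 higher in ID2 than in LAC, and 3 of 19 lower in ID6 than in ID4. Gbp11 fell by 0.91 in LAC (edgeR adjusted p = 0.0211), was higher by 1.61 in ID2 than in LAC (edgeR adjusted p = 0.000415) and fell by 1.27 in ID6 (edgeR adjusted p = 0.000726), all on the log2 scale. Gbp2b was lower by a fitted log2 change of -1.51 in LAC (edgeR adjusted p = 0.00398) and higher by 1.77 in ID2 than in LAC (edgeR adjusted p = 0.00144). Among other type I targets, 11 of 38 were lower in LAC and 18 of 38 higher in ID2 than in LAC, with Ifi203 (-0.69 in LAC, edgeR adjusted p = 0.00117), Uba7, which charges Isg15 for transfer (0.92 in ID2, edgeR adjusted p = 0.00120), and Herc6, its ligase (0.82, edgeR adjusted p = 0.00166), at the head. Medians of this list were -0.36 in LAC and 0.53 in ID2 against LAC.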

How the data were processed

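Expected counts and TPM per gene were deposited by the authors for each of 27 livers, from RSEM 1.3.1 with STAR 2.6.1a and mouse build mm10 per the submitters' processing notes; effective gene lengths come from the same deposited tables. Libraries were made with NEBNext Ultra RNA reagents from Trizol extracts, per the labels' protocols; whether counting used strand is not given in the sources used here. Total expected counts ran from 41120700 to 75664500 per library, and counting error weighs most on the lowest members. No pair of libraries within a group agreed within sampling noise (smallest chi-square per gene 42.4 over 42 pairs).

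Symbols and coordinates came from GENCODE release 21 of the mouse (GRCm38), in which 51633 of 51826 identifiers were found. Members and lists, including pathway genes and cell markers, were chosen with earlier results of these data known. Expected counts were rounded, filtered by stage and scaled by TMM, and all 27 libraries entered 1 fit of edgeR 4.0.16 in R 4.3.3 (quasi-likelihood test, robust). Benjamini-Hochberg adjustment ran over 16428 genes for each of 11 comparisons and for the joint test, and the common biological coefficient of variation was 0.19. The code was tested on simulated counts. Alternatives used DESeq2 1.42.0, limma 3.58.1 on log2(TPM + 1) and log2(TPM + 0.1), other normalizations and covariates, and each library left out.

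A member called in a comparison was described in full, at most 10 per comparison by smallest p, and where none was called the 2 with the smallest p were named. Genes outside the members were named from the lists where called, at most 4 per list and comparison. The result of 1 gene of the pathway lists is not reported here.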

Additional observations from a re-analysis of the deposited data

Results flagged for a closer look

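In 9 of 152 sets of values (1 member in 1 stage of 4 to 6 libraries), 1 library stood apart from the rest by Dixon's criterion, which chance alone meets in about 1 in 20 sets. NUL_220 was high for 3 members, with 47.7 CPM of Irf9 (next highest 36.6), 12.5 CPM of Gbp2 (next 7.95) and 29.4 CPM of Gbp3 (next 16.8). NUL_221 was low for Cmpk2, a mitochondrial nucleotide kinase beside Rsad2 in the genome, with 5.64 CPM (next lowest 8.88).

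ID4_13 was high for Trim25, a ubiquitin ligase that acts on Ddx58, with 116 CPM (next 100.5), and for Lgals3bp, a secreted glycoprotein, with 126 CPM (next 99.7). ID6_218 was high for Xaf1, with 6.02 CPM (next 4.00), and ID6_209 was low for Ifih1, with 23.5 CPM (next lowest 30.4). REG_239 was high for Gbp7, with 32.9 CPM (next 26.8).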

How the results depend on the processing

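No paired analysis was possible because the numbers in the titles are not shared between the stages. The clock score covariate and the fit without the 3 libraries with most pancreas markers (ID2_31, ID4_15 and ID8_98b) were chosen after seeing the data. No called member changed direction in any setting. Counts of called members are given with edgeR's main value first, then the lowest and highest count with 1 library left out, then the settings that moved it by over 1.5 times. LAC against NUL had 5 (1 to 5), and 1 at adjusted p under 0.01. ID2 against NUL had 3 (0 to 6), with 0 under the title number term, 0 under the clock score, 1 with only the groups compared, 9 by DESeq2 and 0 at 0.01. ID4 against NUL had 3 (1 to 10), with 0 under the title number term, 1 under the clock score, 6 by DESeq2 and 1 at 0.01. ID6 against NUL had 0 (0 to 1), with 1 under the clock score and 1 by DESeq2.

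ID2 against LAC had 24 (8 to 27), with 7 under the title number term, 4 under the clock score and 8 at 0.01. ID6 against ID4 had 12 (2 to 17), with 7 without a filter, 0 under the title number term, 1 under the clock score, 5 without the pancreas libraries, 7 on log2(TPM + 1), 4 on log2(TPM + 0.1) and 0 at 0.01. On the TPM scales 1 of these was Bst2, higher, and log2(TPM + 0.1) moved the median of all genes to 0.13. ID8 against ID6 had 0 (0 to 0), with 1 on log2(TPM + 1) and 1 on log2(TPM + 0.1), Oas2 in both, where the latter moved the median of all genes to -0.11. ID8 and REG against NUL, ID4 against ID2 and REG against ID8 had 0 (0 to 0) throughout. Among the 7 stages there were 27 (16 to 29), with 13 under the title number term, 13 under the clock score, 17 on log2(TPM + 1), 17 on log2(TPM + 0.1) and 11 at 0.01. Over all named genes, 1009 alternative values kept their side of the threshold, 165 lost it and 5 gained it. The causes were not tested.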

Other observations

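The library with the highest median of the type I targets, ID2_39 (0.67), also had the highest clock score, 4.92, against 2.07 in the next highest, REG_203. REG_203 had the highest type I median of its stage, 0.22. In LAC the order of the scores (-1.18, -0.87 and 0.71) was that of the medians (-0.46, -0.25 and -0.10), and the libraries with the lowest score of NUL (NUL_221, -2.18), ID6 (ID6_209, -1.93) and REG (REG_234, -1.15) had the lowest median of their stage (-0.46, -0.47 and -0.39). Other libraries went against that order. ID8_98b had the lowest score (0.37) and the highest median (0.24) of ID8, NUL_220 (score -1.13, median 0.16) and ID6_218 (-1.61, 0.08) had the highest median of their stage without the highest score, and ID4_13 (0.30, 0.49) had a higher median than ID4_15 (1.57, 0.37). Whether clock phase takes part in the members' levels was not tested.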
